A study of Mus musculus with 5 samples.

Results

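Hemoglobin-dominated barcodes were defined as droplet barcodes in which features named Hba- or Hbb- made up 50% or more of the counts. They were sought among all 17667 barcodes deposited for the 4 unsorted mouse lung libraries, with no filter on genes, and 2584 met the rule. These barcodes were chosen by their globin share, so every globin level below is a description and supports nothing else.

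The series examined lung senescence after neonatal hyperoxia by droplet single-cell RNA sequencing of lung suspensions. Newborn C57BL/6J mice under 12 h old were kept in room air or in over 95% O2 for 3 days, then recovered in room air until postnatal day 7 (pnd7) or pnd60. No transgene, drug or mutant allele was carried by these groups, and the hyperoxia groups differed from the air groups by the O2 exposure. The 4 groups were air pnd7, hyperoxia pnd7, air pnd60 and hyperoxia pnd60, each with 1 library, so no p-value or replicate spread could be given and a library cannot be told apart from its condition. A further library of hyperoxia pnd7 cells sorted for C12FDG, a fluorescent senescence substrate, held 6 such barcodes of 569 and was left out of the comparisons. That sorted library pooled 3 mouse lungs, and the number of mice in each unsorted library was not stated in the sources used here. Libraries held 29873688, 26295355, 15906723 and 18320487 counts in the order air pnd7, hyperoxia pnd7, air pnd60 and hyperoxia pnd60, and that order is used for every set of 4 values below. All intervals are 95% limits that cover counting error only.

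Reticulocytes are the youngest red cells of the blood. They have lost the nucleus, still carry ribosomes and RNA for a short time, and spend most of that RNA on the alpha and beta chains of hemoglobin. Alongside the globins, an erythroid cell needs Alas2, the enzyme that starts heme synthesis in erythroid cells, mitochondrial iron import, a membrane skeleton that lets the cell bend, enzymes that set oxygen release and remove peroxide, and a program that clears its mitochondria and surplus proteins. The lung receives the whole output of the right heart, so blood cells reach any lung suspension that is not fully freed of them. Transcripts of a red cell can also leak and be captured with other cells.

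At pnd7 hemoglobin barcodes were a large share of the libraries, and at pnd60 a small one. There were 1215 of 4243 barcodes in air at pnd7 (28.6%, exact Clopper-Pearson limits 27.3 to 30.02) and 1016 of 2664 after hyperoxia at pnd7 (38.1%, 36.3 to 40.01). At pnd60 there were 242 of 5128 in air (4.72%, 4.15 to 5.34) and 111 of 5632 after hyperoxia (1.97%, 1.62 to 2.37). The share was therefore higher after hyperoxia than in air at pnd7 and lower at pnd60, each beyond the counting limits of 1 library. How the suspensions were freed of red cells and how droplets were called can set this share, and their part in the result was not tested. Hemoglobin barcodes held 38.9% and 38.6% of all counts of the pnd7 libraries, against 3.51% and 1.30% at pnd60. They were 62.8%, 72.1%, 32.2% and 12.6% of the barcodes with under 700 genes, the lower limit of the study's own cell filter. Of the hemoglobin barcodes, 13, 17, 8 and 2 passed that filter as computed here, with the mitochondrial share taken from 2 mitochondrial ribosomal RNA features only.

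The barcodes fell on either side of the 50% rule with few between. Just outside it, at 45 to 50% globin, lay 3, 2, 2 and 1 barcodes, and just inside it, at 50 to 55%, lay 4, 1, 0 and 1. By contrast, 1185, 983, 183 and 86 hemoglobin barcodes had a globin share of 90% or more, and the median share was 97.5%, 97.7%, 92.5% and 92.8%. In air at pnd7 a second group of 1167 barcodes had 10 to 30% globin, compared with 105, 21 and 4 in the other libraries. Over all other barcodes globins took 2.88%, 0.861%, 0.154% and 0.0812% of the counts. Few barcode sequences were shared between libraries, and 5, 12, 1 and 1 hemoglobin barcodes had a sequence that also occurred in another library.

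**Figure D1:**
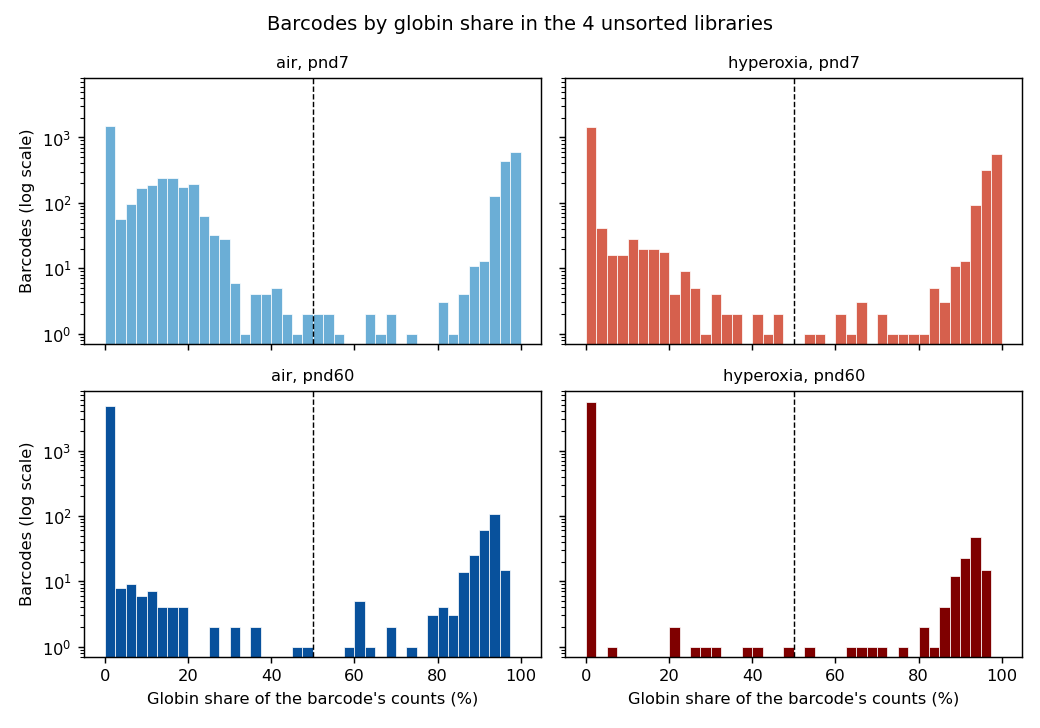
Number of barcodes (log scale) by the globin share of their counts, in bins of 2.5 percentage points, in each of the 4 unsorted libraries, with the 50% rule as a dashed line. In each library the hemoglobin barcodes sit near the right edge, and in air at pnd7 a further group lies at 10 to 30%.

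The hemoglobin barcodes of pnd7 carried more counts, most of which were globin. The median total was 9704 and 10262.5 counts at pnd7 and 2423 and 2099 at pnd60. Outside the globins the medians were nearer to each other but still higher at pnd7, at 246, 231.5, 158.5 and 127 counts from a median of 105, 99, 119 and 100 genes. Summed over barcodes, 444282, 396577, 55499 and 21105 non-globin counts were available, so the pnd60 levels rest on far fewer molecules than those of pnd7. The other barcodes of the same libraries had medians of 2175.5, 4148, 1969.5 and 2049 non-globin counts.

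Among the globins themselves, the balance of alpha and beta chains differed with age and hardly with exposure. Alpha-globin features gave 32.6% (32.5 to 32.6) and 32.7% (32.6 to 32.7) of the globin counts at pnd7, and 50.5% (50.3 to 50.6) and 50.2% (50.01 to 50.4) at pnd60. Hbb-bs, a major adult beta chain, gave 55.8%, 56.2%, 42.5% and 42.7%. Hbb-bt, the second adult beta chain, gave 11.6%, 11.1%, 7.02% and 7.06%. Hba-a1 gave 19.0%, 19.1%, 29.1% and 29.2%, and Hba-a2 gave 13.6%, 13.6%, 21.4% and 21.0%. The copies within a family kept closer to a fixed split than the families did. Hba-a2 was 41.7%, 41.6%, 42.3% and 41.8% of the pair of alpha genes. Hbb-bt was 17.2%, 16.5%, 14.2% and 14.2% of Hbb-bs and Hbb-bt together. As given below, reads of the alpha copies can hardly be told apart, so nothing is drawn from the steadiness of their split. The embryonic beta chain Hbb-y had 2, 1, 0 and 0 counts, and the embryonic Hbb-bh1 and Hba-x had none in any of these barcodes. The features Hbb-b1 and Hbb-b2, names used for the beta genes in another haplotype, had 691 and 277 counts in air at pnd7 and fewer in the other libraries.

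The alpha share also varied with the depth of a barcode within an age. In the pnd7 libraries, barcodes with 2000 to 5000 counts had pooled alpha shares of 41.0% and 40.4%, against 31.8% and 32.2% in barcodes with 10000 counts or more. At pnd60, barcodes of 2000 to 5000 counts had 49.5% and 49.0%, and those under 2000 counts had 54.0% and 53.5%. At the same total depth the pnd60 libraries were thus still higher than the pnd7 libraries, by a smaller margin than over all hemoglobin barcodes. Only total counts were matched there, and the median non-globin counts were 65, 62, 202 and 180.5. An alpha share of 45% or more was found in 4.03% and 4.72% of the barcodes at pnd7 and in 92.6% and 91.9% at pnd60. The 6 hemoglobin barcodes of the sorted pnd7 library had 39.7%. The globin counts found in the other barcodes had a balance close to that of the hemoglobin barcodes of their library, with alpha shares of 32.9%, 32.5%, 51.1% and 51.6%, though the counting limits did not overlap in air at pnd7 and after hyperoxia at pnd60. Hba-a2 was 35.9% of the alpha pair in the other barcodes of hyperoxia pnd60, against 41.8% in the hemoglobin barcodes.

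**Figure D2:**
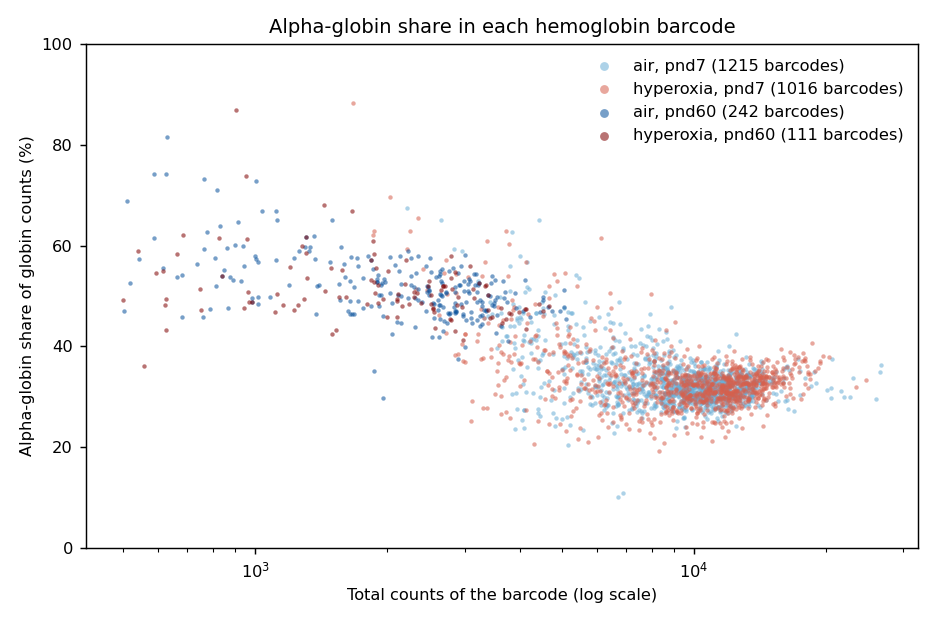
Alpha-globin share of the globin counts (percent) against total counts (log scale), with 1 point for each of the 2584 hemoglobin barcodes, coloured by library. The pnd60 barcodes lie near 50% at low depth, and the pnd7 barcodes near 32% at high depth, with higher values among their shallow barcodes.

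To show how the copies compare in sequence, the 250 bases before the transcription start of Hba-a1, Hbb-bs, Hbb-bt and Alas2 are printed here from RefSeq on GRCm38.p6, the build also called mm10 that the submitters' processing notes name. Each reads 5′ to 3′ toward the start. Capitals mark matches, on either strand, to 6 sets of letters. TATAAA stands for a TATA box and CATATAA for a variant of it seen in globin genes, CCAAT for the box of that name, CACCC for the letters that Klf factors favour, and AGATAA for a GATA motif, with TGATAA as a further form of it.
Hba-a1 (chr11:32283422-32283671, plus strand): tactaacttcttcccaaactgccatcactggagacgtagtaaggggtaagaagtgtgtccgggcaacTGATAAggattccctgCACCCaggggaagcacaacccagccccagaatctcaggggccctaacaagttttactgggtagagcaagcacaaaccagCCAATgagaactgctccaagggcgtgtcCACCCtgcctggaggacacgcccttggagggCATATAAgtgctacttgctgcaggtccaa
Hbb-bs (chr7:103827929-103828178, minus strand): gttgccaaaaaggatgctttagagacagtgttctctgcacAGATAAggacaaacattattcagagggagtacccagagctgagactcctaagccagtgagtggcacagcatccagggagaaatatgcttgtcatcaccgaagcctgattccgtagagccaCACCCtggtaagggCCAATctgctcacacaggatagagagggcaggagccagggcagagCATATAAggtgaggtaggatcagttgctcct
Hbb-bt (chr7:103813924-103814173, minus strand): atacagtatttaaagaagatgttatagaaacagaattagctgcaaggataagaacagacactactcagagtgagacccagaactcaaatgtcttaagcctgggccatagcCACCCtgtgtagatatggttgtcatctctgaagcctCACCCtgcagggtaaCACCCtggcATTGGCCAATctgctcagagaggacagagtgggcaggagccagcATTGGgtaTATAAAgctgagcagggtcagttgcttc
Alas2 (chrX:150547167-150547416, plus strand): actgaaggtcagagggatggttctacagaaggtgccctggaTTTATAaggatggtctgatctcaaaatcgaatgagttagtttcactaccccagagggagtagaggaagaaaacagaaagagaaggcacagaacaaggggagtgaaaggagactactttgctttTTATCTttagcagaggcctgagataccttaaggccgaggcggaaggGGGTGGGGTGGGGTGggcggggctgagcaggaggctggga
CATATAA lay 29 bases before the start of Hba-a1 and 31 before that of Hbb-bs, and TATAAA lay 28 before that of Hbb-bt. CCAAT lay 88, 76 and 75 bases before the start of Hba-a1, Hbb-bs and Hbb-bt, and Hbb-bt also held 2 matches on the other strand, 80 and 36 bases before its start, the first of them next to it with no shared base. Alas2 had no CCAAT match in this window, and held AGATAA 86 bases and 3 CACCC matches end to end at 40, 35 and 30 bases before its start, all on the other strand. Over all 32851 promoters of the table, 12.4% held TATAAA, 2.12% CATATAA, 33.8% CCAAT, 52% CACCC, 9.99% AGATAA and 7.94% TGATAA in the same 250 bases. These matches are a description of the letters and not of binding sites.

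The alpha promoters were the same over all 247 aligned bases of Hba-a1 and Hba-a2, and their GENCODE transcripts of 699 and 554 bases matched at 537 of 538 aligned positions, with the rest of both unaligned. The beta promoters of Hbb-bs and Hbb-bt matched at 182 of 252 aligned positions and their transcripts at 582 of 630 (92.4%). Reads from the aligned stretch of the alpha copies can hardly be told apart, so the split between Hba-a1 and Hba-a2 is uncertain. Whether reads that match both copies were lost from the alpha sum, and so from the alpha share, was not tested.

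All further levels are counts of a gene summed over the hemoglobin barcodes of a library per 1000000 counts outside the globin features, called non-globin CPM. Each transcript is tagged once near its 3′ end, so no correction for length was made. Alas2 took the largest share in each library, with 55152, 53064, 39947 and 44113 CPM, compared with 69.99, 22.6, 6.98 and 4.70 CPM in the other barcodes. Bpgm, which makes the 2,3-bisphosphoglycerate that lowers the oxygen affinity of hemoglobin, had 36961, 35116, 16415 and 11893 CPM, compared with 78.0, 49.0, 26.0 and 24.7 CPM. In summed levels the label of these barcodes thus held for both further markers.

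Depth differed between the barcodes, so each was also thinned to 100 non-globin counts, a number chosen after seeing that a first choice of 500 left 8 and 3 hemoglobin barcodes at pnd60. Thinning left out 217, 218, 45 and 32 hemoglobin barcodes and no other barcode. An Alas2 count was then present in 98.4%, 97.6%, 93.4% and 92.4% of the hemoglobin barcodes and in 2.05%, 0.364%, 0.102% and 0.0362% of the others. Without thinning the shares were 99.3%, 99.5%, 91.7% and 89.2%, against 23.0%, 8.43%, 0.594% and 0.181%. A Bpgm count was present after thinning in 91.5%, 92.4%, 67.0% and 67.1% of the hemoglobin barcodes. In the others it was present in 1.59%, 0.546%, 0.307% and 0.235%. Many pnd60 hemoglobin barcodes thus held no Bpgm count. The background of Alas2 in other barcodes was thus highest in air at pnd7, the library in which many other barcodes held 10 to 30% globin.

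Over the 15 genes with the highest mean level, the hemoglobin barcodes held 33.7%, 32.2%, 17.9% and 16.9% of their non-globin counts, and the other barcodes of each library held under 2% of theirs (1.79%, 1.77%, 1.32% and 1.30%). After Alas2 and Bpgm came Gpx1, which reduces peroxides with glutathione, Ubb, a polyubiquitin gene, mt-Rnr2, the large ribosomal RNA of mitochondria, and Sec61g, part of the channel into the endoplasmic reticulum. The others included LOC100862446, Bnip3l, Ube2l6, Tent5c, Rpl41, Fth1, Mkrn1 and Epb41. Bnip3l is the receptor by which reticulocytes clear mitochondria.

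Relative to the other barcodes of their library, 161 of 1293, 170 of 1321, 72 of 339 and 49 of 129 genes with at least 20 counts were 10-fold or more higher in the hemoglobin barcodes, which is 12.5%, 12.9%, 21.2% and 38% of the genes compared. Of the genes on 6 erythroid lists, 42 of 54, 45 of 59, 25 of 33 and 21 of 26 with that many counts were past 10-fold. In all 4 libraries alike 46 of 122 genes were past it, 20 of them from the erythroid lists. Globin share defined the groups, so these numbers describe them and test nothing. Together the 6 lists made up 32.3%, 31.2%, 18.6% and 18.0% of the non-globin counts of the hemoglobin barcodes. In hemoglobin barcodes of 2000 to 5000 counts they made up 15.4%, 21.7%, 22.8% and 20.8%.

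Heme synthesis was carried by its first and last step. Fech, which inserts iron into the ring, had 9269, 8387, 7928 and 7392 CPM. Steps between had much lower levels. Urod, which acts on the ring before its last steps, had 527, 640, 90.1 and 332 CPM. Cpox, Ppox, Alad and Uros had under 150 CPM in each library. Summed, the 8 genes of the pathway had 65868, 63541, 48055 and 52642 CPM. Alas2 made up most of this sum, and in barcodes of 2000 to 5000 counts it had 39193, 79360, 45404 and 47846 CPM, so the pnd60 libraries lay between those of pnd7.

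In iron supply, Slc25a37, the mitochondrial iron importer also called mitoferrin, had 5785, 4625, 9892 and 9050 CPM and was higher in both pnd60 libraries. The ferritin heavy chain gene Fth1, which stores iron, had 13915, 14532, 6306 and 6728 CPM and was lower in both, though not when scaled to all counts. The light chain gene Ftl1 had 5935, 6064, 1784 and 3743 CPM. Ncoa4, the receptor that sends ferritin to breakdown, had 2537, 2277, 2216 and 1564 CPM. Tfrc, the transferrin receptor that reticulocytes lose as they mature, had only 135, 356, 144 and 332 CPM from 60, 141, 8 and 7 counts.

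Among the genes of the membrane and its skeleton, Epb41, encoding protein 4.1, had 11220, 9063, 9117 and 7913 CPM. Slc4a1, the band 3 anion exchanger that links carbon dioxide transport to the skeleton, had 3131, 2754, 2108 and 2843 CPM. The 18 genes of this list summed to 20505, 19015, 13171 and 12698 CPM, and 0, 0, 7 and 6 of them had no count.

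Among the erythroid lists with over 10000 CPM, red cell enzymes had the widest gap between the ages on this scale. In barcodes of 2000 to 5000 counts that order turned for several of these enzymes, Bpgm, Gpx1 and Car2 among them, as given with the age comparison. Gpx1 had 33551, 34616, 11586 and 9192 CPM. Prdx2, the abundant red cell peroxiredoxin, had 12704, 12578, 1838 and 1990 CPM. Car2, a carbonic anhydrase, had 5654, 5825, 1568 and 1753 CPM, and Blvrb, a biliverdin reductase, had 3435, 3717, 595 and 948 CPM. Cat, encoding catalase, went the other way with 1693, 1299, 3153 and 1990 CPM. As a whole the 11 genes had 98426, 97449, 36649 and 29329 CPM, so the list took a smaller share of the non-globin counts at pnd60 in both exposures.

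Maturation genes included Ube2l6 and Ube2o, which act in ubiquitin transfer, at 15456, 15962, 8847 and 8150 CPM and at 4222, 3467, 3946 and 3885 CPM. Bnip3l had 15531, 14373, 10126 and 8576 CPM. Its log2 ratios of pnd60 over pnd7 were -0.62 in air and -0.74 after hyperoxia. In barcodes of 2000 to 5000 counts they turned to 1.35 and 0.30. Tent5c, a poly(A) polymerase, had 13356, 9864, 12649 and 10993 CPM, with log2 ratios of pnd60 over pnd7 of -0.08 in air and 0.16 after hyperoxia, and of 1.88 and 1.64 in barcodes of 2000 to 5000 counts. Ahsp, the alpha-globin chaperone of this list, was not analysed here.

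Transcription factors and division genes were scarce. Lmo2, a partner of the erythroid GATA factor, led its list with 677, 719, 468 and 569 CPM. Gata1 itself had 7, 11, 0 and 1 counts. The 12 genes of the list of progenitors and division summed to 632, 1077, 955 and 1374 CPM, each below the 2912, 3642, 1641 and 1620 CPM of the other barcodes. Kit, a receptor of early progenitors, had 0, 14, 7 and 2 counts. Malat1, a nuclear RNA, had no count in 78.7%, 80.8%, 83.1% and 82.0% of the hemoglobin barcodes. After thinning to 100 non-globin counts, a Malat1 count was present in 10.9%, 10.5%, 11.2% and 10.1% of them and in 76.4%, 69.2%, 89.9% and 88.0% of the other barcodes.

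**Figure D3:**
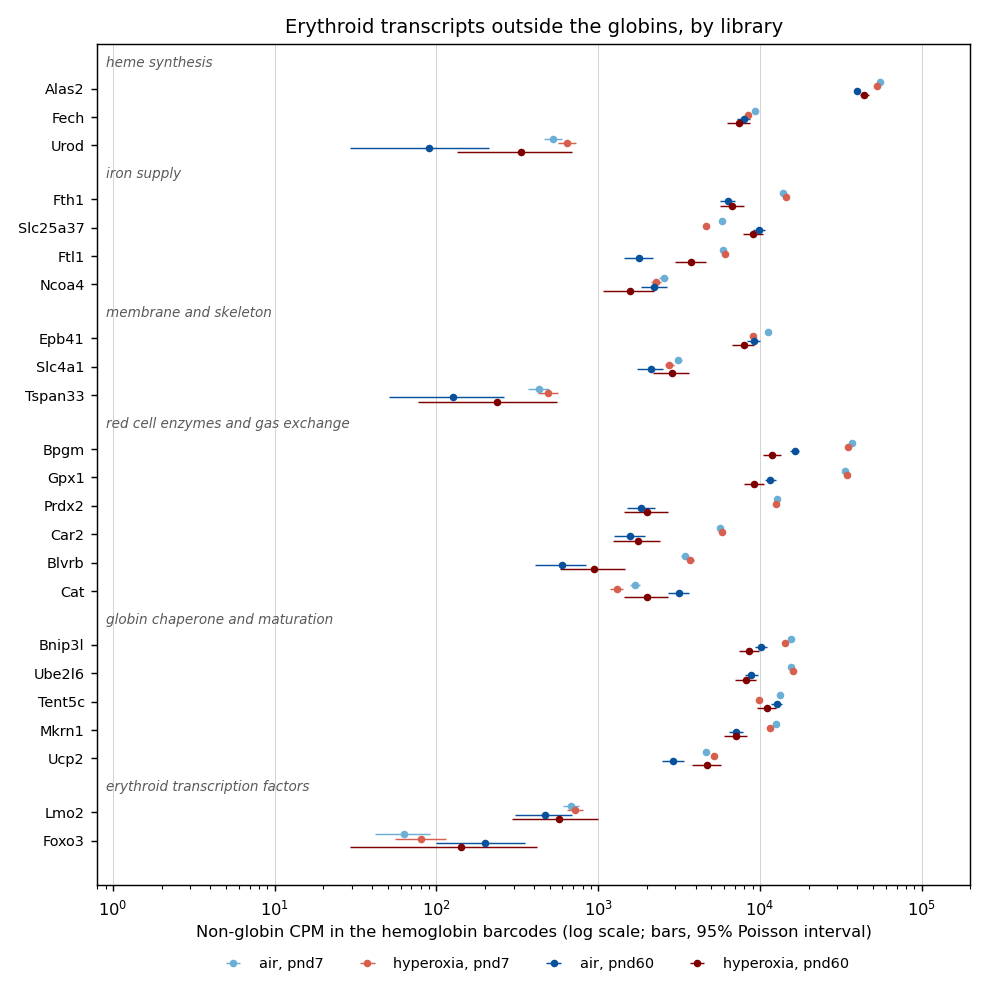
Non-globin CPM (log scale) of 23 erythroid list genes in the hemoglobin barcodes of each library, ordered by role, with 95% Poisson limits as bars. The libraries of an age lie together for most genes, Prdx2 and Blvrb are apart between ages, and the pnd60 bars are wide for genes with few counts.

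Genes of other cells took a small share of the non-globin counts of these barcodes, and that share differed by age. There were 8 lists, for platelets, neutrophils, macrophages and monocytes, lymphocytes, endothelium, alveolar epithelium, airway and mesenchyme. Together they took 0.645%, 0.687%, 1.94% and 1.85% of the non-globin counts. In hemoglobin barcodes with under 700 genes they took 0.314%, 0.360%, 1.81% and 1.95%. At pnd7 the most abundant of these genes was Sftpc, a type II cell surfactant gene, at 2028 and 1889 CPM, and at pnd60 it was Scgb1a1, the club cell secretoglobin, at 4072 and 4217 CPM. The other barcodes had 46949 CPM of Sftpc in air at pnd7, and 10364 and 18306 CPM of Scgb1a1 at pnd60. Ager, a defining gene of type I cells, and Cldn5, of endothelium, had no count in any of these barcodes. Platelet genes summed to 53, 89, 3 and 0 counts, with Ppbp and Pf4 at 0 in each library. In CPM the platelet sums were 119, 224, 54.1 and 0, against 74.0, 40.6, 36.1 and 44.2 in the other barcodes. The platelet list thus lay above the other barcodes in both pnd7 libraries, most after hyperoxia, where Nrgn led it with 98.3 against 20.5 CPM. Mesenchymal genes summed to 2503, 2857, 4577 and 4217 CPM, above the 3908 and 3723 CPM of the other barcodes at pnd60. Endothelial genes summed to 146, 605, 1712 and 3127 CPM, against 1249, 1499, 1908 and 1808 CPM in the other barcodes. The endothelial sum was thus above the other barcodes in hyperoxia pnd60, where Egfl7 led it with 900 against 457 CPM. The part of these transcripts in the differences between libraries was not tested.

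The makeup of hemoglobin barcodes differed with their globin share. In air at pnd7, the 1043 barcodes with 95% globin or more had a median of 199 non-globin counts and 77146 CPM of Alas2, and the 142 barcodes with 90 to 95% had 698 and 38894 CPM. After hyperoxia at pnd7 the corresponding values were 190 counts and 79006 CPM in 877 barcodes, and 746.5 counts and 36714 CPM in 106. Membrane and skeleton genes went the other way, with 21301 against 28665 CPM in air and 19144 against 27816 CPM after hyperoxia. Enzymes did so too, with 104666 against 139911 CPM in air and 106406 against 142714 CPM after hyperoxia. At pnd60 the barcodes of 95% or more were 15 in each library. They also had more Alas2 than those of 90 to 95%, at 73568 against 56156 CPM in air and 74005 against 57429 CPM after hyperoxia, and fewer membrane transcripts, at 7812 against 17298 CPM and 6841 against 13709 CPM.

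Below 70% globin the picture differed. The 10, 8, 9 and 4 barcodes with 50 to 70% had 3.42%, 4.44%, 4.37% and 6.84% of their non-globin counts from the erythroid lists, and 33320, 36643, 31892 and 33744 CPM of Malat1. The hemoglobin barcodes with 700 genes or more, which pass the study's filter as computed here, numbered 13, 17, 8 and 2. They held 14.1%, 18.2%, 25.7% and 15.7% of all non-globin counts. Their erythroid lists made up 3.64%, 6.34%, 4.40% and 3.00%, against 37.0%, 36.8%, 23.5% and 20.7% in the barcodes with under 700 genes. In 1, 4, 0 and 0 of them the erythroid lists reached 10%. Division genes stood out in 1 barcode of hyperoxia pnd7 with 61.3% globin, 1660 genes, 23 counts of the proliferation gene Mki67 and 17 of Top2a, and a like barcode of hyperoxia pnd60 lay just outside the rule at 47.7% globin with 36 and 14. No doublet caller was run.

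**Figure D4:**
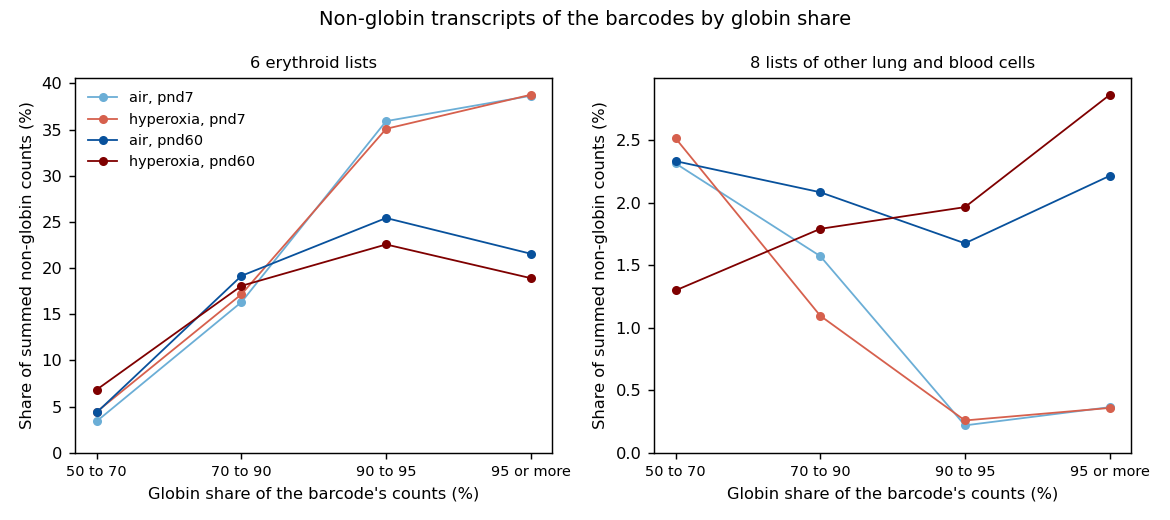
Share of the summed non-globin counts (percent) from the 6 erythroid lists (left) and from 8 lists of other cells (right), by globin share of the hemoglobin barcodes, with 1 line for each library. Erythroid lists reach 38.7% and 38.8% in the pnd7 barcodes of 95% globin or more, and 3.42% to 6.84% at 50 to 70%.

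Summed over all hemoglobin barcodes, erythroid levels after hyperoxia and in air at pnd7 lay close for most list genes. Of 616 non-globin genes with at least 100 counts in both libraries together, 24 were 2-fold or more higher and 8 lower after hyperoxia, which is 3.9% and 1.3% of the genes compared, or 5.19% in all. Of 44 erythroid list genes among them, 1 was past 2-fold higher and 0 lower. Their median log2 ratio was 0.03, with medians of the counting limits at -0.09 and 0.11, beside -0.04 over all 616 genes. Alas2 had a log2 ratio of -0.06, Bpgm of -0.07, Gpx1 of 0.05, Prdx2 of -0.01 and Fth1 of 0.06. The gene past 2-fold was Tfrc at 1.40 (0.95 to 1.86). Its counts lay in 31 and 43 barcodes, and its ratio was 0.89 at the lowest of the alternatives tried. In barcodes of 2000 to 5000 counts the ratios were higher for several genes, with 2 of 12 erythroid list genes past 2-fold higher and 0 lower, beside 5 higher and 5 lower of all 32 genes compared. There Alas2 had 39193 CPM in air and 79360 after hyperoxia (log2 ratio 1.02), Ube2l6 9505 and 19115 (1.01), Bnip3l 4753 and 8484 (0.84) and Fech 5993 and 9665 (0.69). The median ratio over the 32 genes compared there was 0.58, and 2 barcodes with 700 genes or more held 26.5% of the non-globin counts in air at that depth, against 0 after hyperoxia.

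The genes farthest apart at pnd7 were not on the erythroid lists, and for several of them 1 barcode held most of the counts. Igfbp5 was highest at 5.78 on the log2 scale (4.40 to 7.67), with 194 of its 196 counts after hyperoxia in 1 barcode. Msln had 151 of 153 counts in 1 barcode, Hmox1, the inducible heme oxygenase, 116 of 132, C3 94 of 98, and Apoe 268 of 312. Among the lowest, Tagln (-2.54) had 112 of 163 counts in air in 1 barcode and Acta2 (-1.80) 106 of 160. Tgfbi (-2.92), Fstl1 (-1.53) and Lgals1 (-1.38) had 80.7%, 84.0% and 81.0% of their counts in air in the barcodes with 700 genes or more. Without those barcodes, 8 genes were past 2-fold and higher, and 0 lower, of 462.

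At pnd60 the 2 libraries could be compared for 96 genes, of which 1 was past 2-fold higher after hyperoxia and 1 lower, 1.04% in either direction and 2.08% in all. The higher was Ftl1 at 1.07 (0.62 to 1.51), with 99 counts in air and 79 after hyperoxia. Its ratio was under 2-fold with a globin share of 30% or more (0.90), with under 700 genes (0.99), by per-barcode means (0.93) and scaled to all counts (0.90). The lower was Cd74, the MHC class II invariant chain of antigen-presenting cells, at -1.34 (-2.03 to -0.72), with 151 of its 160 counts in air in the 8 barcodes of 700 genes or more. Over 24 erythroid list genes the median log2 ratio was -0.12 (-0.43 to 0.15), beside -0.02 over all 96. With a minimum of 20 counts, 2 of 35 erythroid list genes were past 2-fold higher and 0 lower, beside 20 higher and 35 lower of all 476 genes compared.

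On the scale of non-globin CPM, the ages differed at more genes than the exposures did. In air, 43 of 425 genes were 2-fold or more higher and 128 lower at pnd60 than at pnd7, 10.1% and 30.1% of the genes compared, or 40.2% in all. After hyperoxia, 30 of 379 were higher and 120 lower, 7.92% and 31.7%, or 39.6% in all. Of the erythroid list genes, 0 of 39 were past 2-fold higher and 17 lower in air, and 0 of 41 higher and 17 lower after hyperoxia. Their medians were -0.82 (-1.30 to -0.67) and -0.91 (-1.38 to -0.04), beside -0.43 and -0.46 over all genes compared. Both age comparisons use separate libraries. Of the 128 genes lower in air and 120 lower after hyperoxia, 80 were in both (62.5% and 66.7% of each list). Of these 80, 14 were erythroid list genes. Of the 43 higher in air and 30 higher after hyperoxia, 17 were in both (39.5% and 56.7%), with 0 erythroid list genes. Both comparisons held 352 genes, and no gene was past 2-fold in opposite directions.

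Prdx2 had a log2 ratio of -2.79 in air and -2.66 after hyperoxia, and Blvrb of -2.53 and -1.97, and both stayed below 0 when scaled to all counts. In barcodes of 2000 to 5000 counts Prdx2 was at -0.89 in air, under 2-fold. Blvrb had too few counts at that depth for a ratio, with 895, 752, 829 and 1324 CPM from 13, 7, 32 and 20 counts. Its ages were thus close there in air, and it was higher at pnd60 after hyperoxia. Ubb had a log2 ratio of -2.68 (-2.85 to -2.52) in air and -2.48 (-2.73 to -2.24) after hyperoxia. Alas2 (-0.47 and -0.27) and Fech (-0.23 and -0.18) differed less on this scale, and Slc25a37 (0.77 and 0.97) and Cat (0.90 and 0.62) were higher at pnd60 in both exposures. Gda, a guanine deaminase, had 738, 620, 4090 and 3743 CPM, a log2 ratio of 2.47 in air and 2.59 after hyperoxia.

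**Figure D5:**
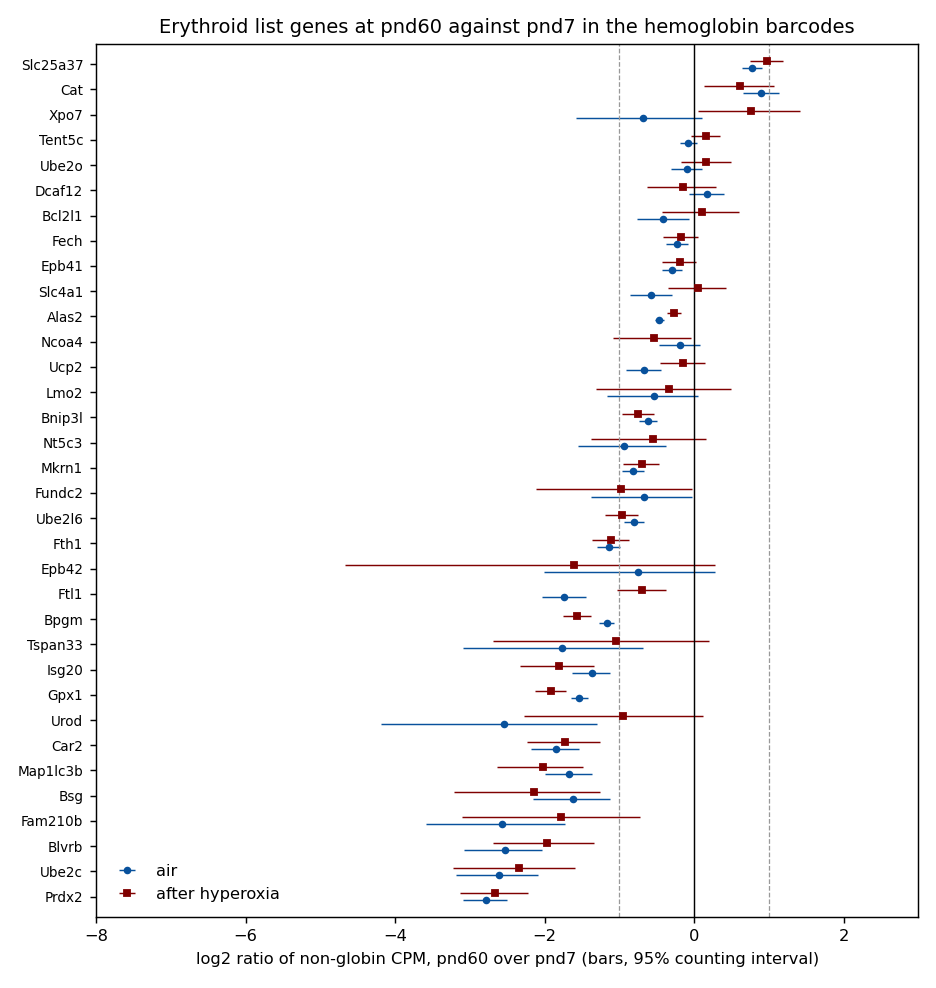
log2 ratio of non-globin CPM at pnd60 over pnd7 for 34 erythroid list genes with at least 100 counts in both age comparisons, in air (circles) and after hyperoxia (squares), with 95% counting limits. On this scale 26 genes lie below 0 and 2 above 0 in both comparisons, and scaled to all counts, globins included, ratios stand 1.38 (air) and 1.18 (hyperoxia) higher, which brings part of them above 0.

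The direction of the age ratios depended on the scale and on the depth of the barcodes. On a scale of all counts, globins included, every log2 ratio stood higher by 1.38 in air and 1.18 after hyperoxia, and the erythroid medians became 0.56 and 0.27. Then 9 of 39 erythroid genes were past 2-fold higher and 7 lower in air, and 10 of 41 higher and 4 lower after hyperoxia. Over all genes compared, 203 of 425 were higher and 34 lower in air on that scale, and 147 of 379 higher and 27 lower after hyperoxia. Relative to the median gene the erythroid medians were -0.38 and -0.46. In barcodes of 2000 to 5000 counts alone, a limit chosen after seeing the data, 97, 116, 143 and 58 barcodes remained, and the erythroid medians were 0.86 over 22 genes and 0.20 over 13. The pnd7 barcodes of that depth held a median of 65 and 62 non-globin counts, against 202 and 180.5 at pnd60, and the median over all genes compared at that depth was 0.45 in air (67 genes) and -0.57 after hyperoxia (30 genes). There Bpgm was higher at pnd60 (1.33 and 0.39), as was Gpx1 (0.76 and 0.76), and Car2 in air (1.02), so the order seen over all hemoglobin barcodes did not hold for these enzymes. After hyperoxia Car2 had too few counts at that depth for a ratio, with 966 CPM at pnd7 and 2184 at pnd60 from 9 and 33 counts. Ubb kept its direction there at -2.37 and -2.11, and LOC100862446 at -3.10 and -4.61. Slc25a37 kept its own at 1.87 and 0.96. At that depth Ubb had 32167, 33398, 6242 and 7743 CPM, and Slc25a37 had 3306, 5047, 12070 and 9794 CPM.

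The genes highest at pnd60 included genes of other cells. In air these were Gsn (4.63), Scgb1a1 (4.07), Sptbn1 (3.70), Ly6e (3.46) and Cd74 (3.44), and after hyperoxia Scgb1a1 (4.98), Sptbn1 (3.40), Gda (2.59), B2m (2.19) and Gnai2 (1.96). Scgb1a1 had a count in 50.4% and 54.95% of the hemoglobin barcodes at pnd60 and in 5.43% and 4.92% at pnd7, and the other barcodes had 5677, 3953, 10364 and 18306 CPM of it. Its age ratio in air was 0.35 in barcodes of 2000 to 5000 counts, and at a globin share of 30% or more it was 1.90 in air and 1.18 after hyperoxia. The lowest after hyperoxia were Eln at -5.26 (-10.56 to -2.78), Igfbp5 at -3.38 (-8.69 to -0.89), Btf3 at -3.23 (-8.54 to -0.73), Hagh at -3.15 (-4.78 to -1.92) and Emd at -3.09 (-6.14 to -1.22), from 1, 1, 1, 5 and 2 counts at pnd60. Of these, Eln and Igfbp5 had most of their pnd7 counts in 1 barcode, with 678 of 719 and 194 of 196. Among the lowest in air were Tmcc2 at -4.24 (-5.87 to -3.01), Tcp11l2 at -4.18 (-9.49 to -1.68), Gm32208 at -3.88 (-9.20 to -1.38) and Pnp at -3.78 (-9.10 to -1.27), the latter 3 from 1 count each at pnd60.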

How the data were processed

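Single-cell suspensions of mouse lung were profiled by droplet 3′ RNA sequencing, with 1 library per condition. The values are counts of transcripts per gene and barcode, as deposited by the authors, who per the submitters' processing notes used Cell Ranger and mm10 (the matrix headers name software version 3.1.0) and Seurat 3.2.1. The study's own analysis retained barcodes with between 700 and 8000 genes whose mitochondrial share stayed below 5%. No such filter was applied here, and no doublet caller was run.

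Hemoglobin barcodes had 50% or more of their counts in 13 Hba- or Hbb- features. The barcodes and gene lists were chosen with earlier results of these data known. Levels are summed counts per 1000000 non-globin counts with exact Poisson limits. Libraries were compared by log2 ratio over genes with 100 counts or more in both together, with exact binomial limits and 2-fold as the size named. With 1 library per group no test across replicates exists. Genes named were those of 15 lists, all globins, the 15 most abundant genes and the 5 highest and 5 lowest per comparison, and any other gene named was chosen after its values were seen. A few of these genes are not reported here singly, and they stay in list sums and medians. Promoter sequences came from RefSeq on GRCm38.p6 (4 printed) and transcripts from GENCODE. Alternatives varied the globin threshold, gene and depth limits, thinning, weighting and scaling. Python 3.11.15, numpy 2.4.6, scipy 1.17.1, pandas 2.3.3 and matplotlib 3.10.9 were used, and the code was tested on simulated data.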

Additional observations from a re-analysis of the deposited data

Results flagged for a closer look

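The share of hemoglobin barcodes differed from air in opposite directions at the 2 ages. After hyperoxia it was 9.5 percentage points higher at pnd7 (38.1% against 28.6%), and at pnd60 the difference was -2.75 points (1.97% against 4.72%). With 1 library per condition the difference between the ages was not tested. Counting limits within a library do not cover how each lung was freed of blood or how each suspension was made.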

How the results depend on the processing

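No paired analysis was possible because a condition was represented by 1 library only. The limits that follow are counting limits, and library and condition cannot be told apart. Under the study's own cell filter, hemoglobin barcodes were 0.563%, 1.36%, 0.182% and 0.042% of the barcodes that pass. The mitochondrial share in that filter was taken here from 2 mitochondrial ribosomal RNA features only. In barcodes of 2000 to 5000 counts, an alternative added after seeing the data, the alpha share was 41.0%, 40.4%, 49.5% and 49.0%. For hyperoxia against air at pnd7, the 32 genes past 2-fold of 616 compared became 6 of 470 at a globin share of 80%, 75 of 1007 at 30%, 8 of 462 with under 700 genes, 10 of 32 at 2000 to 5000 counts, 20 of 616 for the mean of per-barcode values, 2 of 233 thinned to 200 counts and 404 of 2511 with a minimum of 20 counts, and the erythroid median became 0.55 at 2000 to 5000 counts. At pnd60 the 2 genes of 96 became 1 of 76 at 80%, 0 of 78 with under 700 genes, 0 of 27 thinned, 1 of 96 scaled to all counts and 55 of 476 with 20 counts. For age in air, the 171 genes of 425 became 32 of 67 at 2000 to 5000 counts, 59 of 169 thinned and 900 of 1704 with 20 counts, and the erythroid median became -0.62 at 80%, 0.86 at 2000 to 5000 counts, -0.55 thinned, 0.56 scaled to all counts and -0.38 centred on the median gene. For age after hyperoxia, the 150 genes of 379 became 15 of 30, 58 of 146 and 708 of 1463 under the same 3 settings, and the erythroid median 0.20 at 2000 to 5000 counts and 0.27 scaled to all counts. The number of genes compared changes with each of these settings, so the counts are to be read against it.

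Over 235 single-gene results, 1804 values were computed under alternatives, of which 1345 kept the sign and stayed within the counting limits, 437 lay outside them and 22 took the opposite sign of a value past 2-fold. At pnd7 these were C3 (-0.73) and Eln (-0.18) at 30%, Eln (-0.52) at 80%, and Lgals1 (0.31) by per-barcode means. At pnd60 it was Cd74 (1.30) by per-barcode means. For age in air, at 2000 to 5000 counts they were Bpgm (1.33), Car2 (1.02) and Gpx1 (0.76), by per-barcode means Lgals1 (0.80) and Tagln (0.29), and scaled to all counts Bpgm (0.21), Fth1 (0.24), Isg20 (0.0081) and Lgals1 (0.21). For age after hyperoxia, at 2000 to 5000 counts they were Bpgm (0.39) and Gpx1 (0.76), by per-barcode means Igfbp5 (0.75), at 30% Rhd (1.26), and scaled to all counts Fth1 (0.071), Rhd (0.056), Sec61g (0.012) and Tspan33 (0.14). Those scaled to all counts follow from the shift of every gene by 1.38 in air and 1.18 after hyperoxia. The cause of the others was not tested. The pnd60 libraries, with 55499 and 21105 non-globin counts in hemoglobin barcodes, limit every comparison that uses them.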

Other observations

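The genes described here lie outside the lists and are among the 46 that were 10-fold or more above the other barcodes in each library. They were chosen after their values were seen, and no group of genes was counted or tested. Isca1, an iron-sulfur cluster assembly factor, had 7804, 7784, 4811 and 4549 non-globin CPM, against 73.5, 71.5, 43.7 and 49.1 CPM in the other barcodes. Glrx5, a mitochondrial glutaredoxin of the same route, had 2951, 2812, 811 and 1042 CPM, and Bola3, another factor of it, had 2188, 1858, 721 and 1327 CPM. Slc25a39, a mitochondrial carrier that imports glutathione, had 6098, 5641, 4721 and 5449 CPM, against 93.2, 96.2, 90.8 and 84.7 CPM.

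Gabarapl2, of the family that builds autophagosomes, had 8558, 8722, 2126 and 2369 CPM. Cd24a, a surface glycoprotein of immature blood cells, had 8366, 7895, 4703 and 4075 CPM, against 115, 106, 313 and 333 CPM in the other barcodes. Rsad2, known as the interferon-induced antiviral enzyme viperin, had 4711, 4370, 4432 and 3885 CPM, against 7.33, 7.12, 10.6 and 11.9 CPM. The level of Rsad2 was close between the 4 libraries.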
